A study of Mus musculus with 7 samples.

Results

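The unfolded protein response (UPR) genes examined here were the 10 mouse genes Hspa5, Hsp90b1, Ern1, Eif2ak3, Atf6, Xbp1, Atf4, Ddit3, Creb3l1, and Creb3l2. They were taken from the deposited table of estimated counts by exact gene name, which gave 11 of its 55401 rows, since 2 rows carry the name Ddit3. The table covers 7 RNA-Seq samples of knee articular cartilage from male C57BL/6J mice, collected 2 weeks after destabilization of the medial meniscus (DMM), a surgical model of posttraumatic osteoarthritis performed at 10 weeks of age. The 4 WT samples came from animals with intact Trpc1, and the 3 Trpc1-/- samples from animals of the same colony that lack the calcium channel TRPC1 in all cells through the Trpc1tm1Lbi allele, in which an exon is deleted. All animals of both groups had DMM, and no sham-operated samples entered the comparison. Each sample pooled tissue of 2 to 3 mouse knees, and the study's methods name subchondral bone beside the cartilage. The labels were followed where the methods text gives the group sizes the other way round.

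Secretory cells fold and modify their cargo in the endoplasmic reticulum (ER), and the UPR adjusts the folding capacity of that compartment to the load. When unfolded proteins draw the chaperone BiP away from the ER membrane sensors IRE1, PERK, and ATF6, IRE1 splices the Xbp1 mRNA, PERK phosphorylates the translation factor eIF2 and thereby favors translation of ATF4, and ATF6 is cut in the Golgi apparatus to release a transcription factor. Chondrocytes and osteoblasts export large amounts of collagen and depend on this machinery, and plasma cells, which secrete antibody, are a classic example of a cell type that needs XBP1. Many of these steps act on protein or on splicing, which a count per gene does not read. The comparison asked whether the mRNA levels of this response differed between WT and Trpc1-/- joints early after DMM.

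Values are CPM, the usual library-scaled counts, taken over the tested genes after normalization by the TMM method of edgeR. Counts on genes summed to between 52142451 and 118254070 per sample, and 3 counts, taken as the smallest detectable signal, corresponded to between 0.0244 and 0.0632 CPM, limits that cover counting error only. All 10 UPR genes passed the filter on low counts (more than 1 CPM in at least 2 samples), as did 16429 genes in all. The second Ddit3 row, a gene model inside the first on chr10:127290829-127293753, had 1 count in each sample and was not tested. The targeted gene, Trpc1 (ENSMUSG00000032839), had 4.83, 4.55, 4.77, and 4.33 CPM in WT replicates 1 to 4 and 3.35, 3.79, and 3.04 CPM in Trpc1-/- replicates 1 to 3. Every Trpc1-/- sample thus lay below every WT sample, in the direction of the labels, although a value per gene shows nothing of the deleted exon by itself.

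WT replicate 1 stood apart from the other samples. Its log2 CPM values over the tested genes had a mean Pearson r of 0.947 with those of the other samples, against 0.973 to 0.98 for each of the others, and it had the lowest total count. Its neutrophil lineage markers summed to 5503 CPM, against 12823 to 17360 CPM in the other 6 samples, and its plasma cell markers to 441 CPM, against 1091 to 1330 CPM. Ighm made up 35.4% of the plasma cell sum over all samples. Ighm, Igkc, Igha, Jchain, Mzb1, Irf4, and Tnfrsf17 were lowest in WT replicate 1. Prdm1 (5.59 CPM), Fkbp11 (3.84 CPM), and Sdc1 (27.7 CPM) lay within the range of the other samples, so the list did not fall as a whole. Many values below are therefore also given without it. In bulk tissue of this kind, fewer cells of a type and less RNA per cell cannot be told apart.

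The ER chaperones were abundant and had higher means in Trpc1-/- samples, with groups that overlapped. Hspa5 (ENSMUSG00000026864, chr2:34771970-34777547 in GRCm38), which encodes BiP, had 238, 340, 360, and 333 CPM in WT replicates 1 to 4 and 441, 343, and 360 CPM in Trpc1-/- replicates 1 to 3. WT replicate 1 was the lowest and Trpc1-/- replicate 1 the highest, and the other 5 samples lay close together, so that the groups overlapped. The WT mean was 318 ± 54.1 CPM (SD, n = 4) and the Trpc1-/- mean 381 ± 52.4 CPM (SD, n = 3). The log2 fold change (logFC) of Trpc1-/- over WT was 0.26 with an SE of 0.16, and the quasi-likelihood test of edgeR with Benjamini-Hochberg adjustment over all tested genes gave an adjusted P of 0.587. Its 95% interval ran from −0.12 to 0.64, and without WT replicate 1 the logFC was 0.15 (SE 0.10, adjusted P = 0.512 in edgeR). Hsp90b1 (ENSMUSG00000020048, chr10:86690209-86705509), which encodes the HSP90 paralog of the ER, GRP94, had 281, 341, 350, and 334 CPM in WT and 382, 352, and 340 CPM in Trpc1-/- samples. WT replicate 1 was again the lowest sample and Trpc1-/- replicate 1 the highest, and the logFC was 0.13 (SE 0.11, adjusted P = 0.659 in edgeR), and 0.064 (SE 0.07) without WT replicate 1. Reads of Hsp90b1 could be shared with Gm15344, a transcript on the same strand that overlaps it by 977 bases and had a mean of 1.51 CPM.

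**Figure D1:**
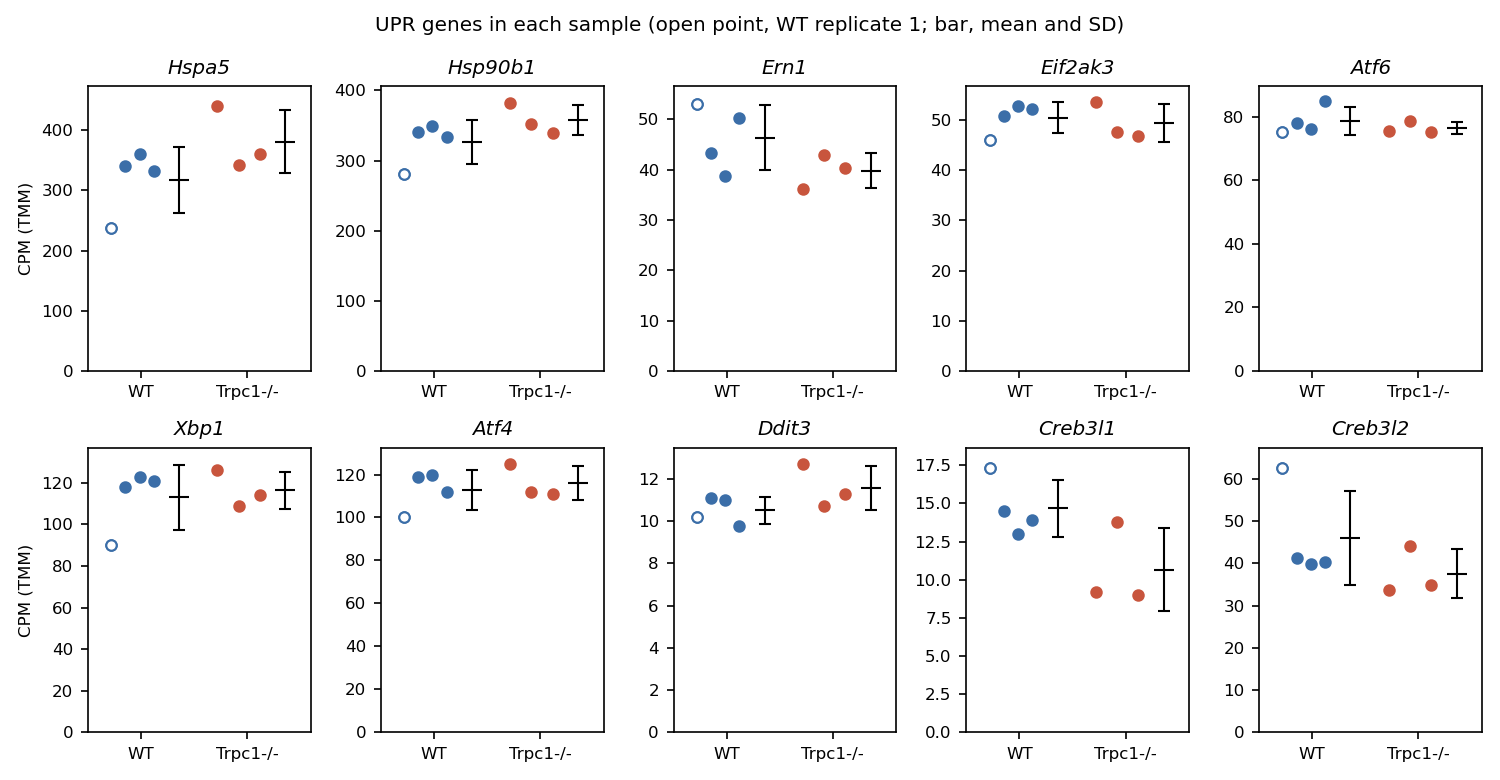
CPM of the 10 UPR genes in each sample, with WT in blue, Trpc1-/- in red, WT replicate 1 as an open point, and the mean with its SD beside each group. The points of the 2 groups overlap in every panel, and WT replicate 1 lies below the other WT samples for Hspa5, Hsp90b1, and Xbp1 and above them for Creb3l1 and Creb3l2.

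Hspa5 and Hsp90b1 varied together over the samples, with a Pearson r of 0.98 between their log2 CPM values (n = 7) and of 0.92 without WT replicate 1. Their promoters are shown because both hold the ER stress response element (ERSE), a motif known as the binding site of ATF6 with NF-Y, here searched as CCAAT and CCACG with 9 bases between them on either strand. Each sequence gives the 250 bases before the RefSeq start site (GRCm38.p6), 5′ to 3′ on the strand of the gene, with the matches in capitals. The Hspa5 window is chr2:34771840-34772089 on the plus strand and the Hsp90b1 window chr10:86705445-86705694 on the minus strand.
Hspa5: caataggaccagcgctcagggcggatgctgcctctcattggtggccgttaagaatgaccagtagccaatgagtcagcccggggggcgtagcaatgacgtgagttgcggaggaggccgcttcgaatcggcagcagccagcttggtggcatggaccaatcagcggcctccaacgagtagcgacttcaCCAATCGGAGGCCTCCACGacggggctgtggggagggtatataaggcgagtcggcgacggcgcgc
Hsp90b1: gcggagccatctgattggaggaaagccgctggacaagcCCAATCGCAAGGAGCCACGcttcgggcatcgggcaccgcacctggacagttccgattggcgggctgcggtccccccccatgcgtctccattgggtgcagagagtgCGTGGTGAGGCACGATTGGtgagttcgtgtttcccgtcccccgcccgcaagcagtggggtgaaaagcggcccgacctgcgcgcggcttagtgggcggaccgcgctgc
The Hspa5 match ends 46 bases before the start site, at chr2:34772025-34772043. The Hsp90b1 matches end 193 and 88 bases before it, and the nearer one lies on the opposite strand. These letters occur in 39 of 32851 RefSeq promoter windows, or 0.119%, each 250 bases before to 50 bases after a start. Promoters of 8 of the 10 UPR genes were matched by symbol, not those of Atf6 and Creb3l1, and none of the other 6 held these letters in its window. Neither ERSE-II (ATTGG and CCACG with 1 base between, in 0.0365% of windows), the CREB site TGACGTCA (1.79%), nor TTGCATCA, one form of the ATF4 element (0.895%), occurred in any of the 8 windows on either strand. A match is a description and says nothing of binding. Of the 37 genes with the ERSE letters, 18 were tested, Hspa5 and Hsp90b1 among them, 11 with a positive and 7 with a negative logFC and a median of 0.08, against −0.0088 over all tested genes. They included the chaperones and folding enzymes Calr, Canx, Creld2, Dnajc3, and Pdia6 and the ER-associated degradation genes Derl3 and Syvn1. Their median was 0.021 without WT replicate 1.

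For the 3 sensors the groups overlapped. Ern1 (ENSMUSG00000020715, chr11:106394650-106487852), the gene of IRE1α, had 53.1, 43.4, 38.8, and 50.2 CPM in WT and 36.1, 42.9, and 40.4 CPM in Trpc1-/- samples. Trpc1-/- replicate 1 was the lowest sample, the other 2 Trpc1-/- samples lay between the 2 lower WT samples, and the logFC was −0.22 (SE 0.12, adjusted P = 0.551 in edgeR), and −0.15 (SE 0.11) without WT replicate 1. Eif2ak3 (ENSMUSG00000031668, chr6:70844515-70905245), the gene of PERK, had 46.1, 50.9, 52.9, and 52.2 CPM in WT and 53.7, 47.6, and 46.9 CPM in Trpc1-/- samples. Its logFC was −0.033 (SE 0.081), with a 95% interval from −0.22 to 0.15, and −0.076 (SE 0.067) without WT replicate 1. Atf6 (ENSMUSG00000026663, chr1:170704674-170867771) varied least of the 10 genes, between 75.2 and 84.9 CPM in WT and between 75.3 and 78.8 CPM in Trpc1-/- samples. Its highest sample was 1.13 times its lowest, and its logFC was −0.037 with a 95% interval from −0.21 to 0.13, and −0.06 (SE 0.059) without WT replicate 1. The sign of the logFC of Eif2ak3 and of Atf6 changed under some of the settings tried.

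The transcription factors downstream of the sensors also had overlapping groups. Xbp1 (ENSMUSG00000020484, chr11:5520659-5525893) had 89.9, 118, 123, and 121 CPM in WT and 126, 109, and 114 CPM in Trpc1-/- samples. WT replicate 1 had 0.746 of the mean of the other 3 WT samples, and the logFC of 0.048 (SE 0.13) became −0.049 (SE 0.066) without that sample. Atf4 (ENSMUSG00000042406, chr15:80255184-80257541) had 100, 119, 120, and 112 CPM in WT and 125, 112, and 111 CPM in Trpc1-/- samples. Its logFC was 0.04 (SE 0.094), and −0.014 (SE 0.067) without WT replicate 1. Ddit3 (ENSMUSG00000025408, chr10:127290774-127296288), which encodes CHOP, a factor linked to cell death under lasting ER stress, had 10.2, 11.1, 11, and 9.78 CPM in WT and 12.7, 10.7, and 11.3 CPM in Trpc1-/- samples. Trpc1-/- replicate 1 was the highest sample, and the logFC was 0.13 (SE 0.093, adjusted P = 0.619 in edgeR). Ddit3 overlaps Mars by 68 bases on the opposite strand, and the study's methods describe strand-aware alignment. The other genes that overlap a UPR gene had low counts. They were 1810014B01Rik, on the opposite strand of Hsp90b1, with a mean of 3.43 CPM, and Gm25745 (Hsp90b1), Gm23346 and Gm43292 (Eif2ak3), Gm23523 and Gm25235 (Atf6), and Gm4189 (Ddit3), with means between 0.0115 and 0.484 CPM.

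The activity of IRE1 shows in the splicing of Xbp1, which the table does not resolve. IRE1 cuts at a pair of sites with the letters CNGCNG, and a search of the coding sequence of an annotated protein-coding Xbp1 transcript for CNGCAG recurring after 26 bases gave 2 pairs, in exon 1 and exon 4, of which the second is the known site. It is printed to show how short the removed stretch is, which spans chr11:5524279-5524304 on the plus strand and stands in capitals within 56 bases of GENCODE M21 transcript sequence.
Xbp1: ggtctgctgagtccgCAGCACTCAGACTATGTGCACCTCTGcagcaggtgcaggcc
None of the 4 annotated Xbp1 transcripts has an intron of 26 bases, so spliced and unspliced mRNA add to the same count per gene.

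Creb3l1 and Creb3l2 encode OASIS and BBF2H7, ER-anchored transcription factors related to ATF6. OASIS is known for its part in collagen production by osteoblasts, and BBF2H7 for its part in the secretion of cartilage matrix by chondrocytes. Creb3l1 (ENSMUSG00000027230, chr2:91982328-92024502) had 17.3, 14.5, 13, and 13.9 CPM in WT and 9.20, 13.8, and 8.97 CPM in Trpc1-/- samples. Trpc1-/- replicates 1 and 3 lay below every WT sample, whereas Trpc1-/- replicate 2 lay within the WT range. The WT mean was 14.7 ± 1.83 CPM (SD, n = 4) and the Trpc1-/- mean 10.6 ± 2.71 CPM (SD, n = 3). The logFC was −0.46 (SE 0.18), with a 95% interval from −0.87 to −0.054, an unadjusted P of 0.0311, and an adjusted P of 0.469 in edgeR and of 0.261 in DESeq2. The logFC was −0.38 without WT replicate 1 (SE 0.16, adjusted P = 0.302 in edgeR). DESeq2 called Creb3l1 in 1 of the 7 fits that left out a sample, that without Trpc1-/- replicate 2, where its adjusted P was 0.00249. Over those fits the adjusted P reached 0.961. Creb3l2 (ENSMUSG00000038648, chr6:37327255-37442146) had 62.7, 41.3, 39.8, and 40.4 CPM in WT and 33.8, 44.2, and 34.8 CPM in Trpc1-/- samples. WT replicate 1 had 1.55 times the mean of the other 3 WT samples, which lay between 39.8 and 41.3 CPM. The logFC was −0.29 (SE 0.19, adjusted P = 0.593 in edgeR), and −0.11 (SE 0.11) without that sample.

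Of the 10 UPR genes, 5 had a positive and 5 a negative logFC, with a median of 0.0038. The numbers became 3 and 7 without WT replicate 1, with a median of −0.054. None was called by edgeR at an adjusted P under 0.05, where 0 of the 16429 tested genes were called, or 0%. At an unadjusted P under 0.05 in edgeR, 1 of the 10 passed, Creb3l1, against 1643 tested genes, or 10.0%. DESeq2 called 294 genes, or 1.79% of those tested, and limma-voom 1 gene, and neither called a UPR gene. The groups were separate in 2230 tested genes, or 13.6%, and in 0 of the 10 UPR genes. The 10 genes thus lay near the background by each of these counts. These counts moved with single samples. Without WT replicate 1, edgeR called 49 genes, or 0.298% of those tested, with 0 UPR genes among them, and Creb3l1 no longer had an unadjusted P under 0.05, nor did it without WT replicate 2, Trpc1-/- replicate 1, or Trpc1-/- replicate 3. Without WT replicate 3, Ern1 joined Creb3l1 at an unadjusted P under 0.05, and the groups were separate for Hspa5, Ern1, and Creb3l1, against 21.3% of the tested genes. Without Trpc1-/- replicate 2 they were separate for Hspa5, Ddit3, Creb3l1, and Creb3l2, against 28.8%, and without Trpc1-/- replicate 3 for Hsp90b1, against 16.4%. WT replicates 3 and 4 carry mouse numbers of a separate series, which no Trpc1-/- sample carries. With this series as a covariate the logFC was 0.40 for Hspa5 and −0.47 for Creb3l2, with adjusted P values of 0.304 and 0.281 in edgeR. The 95% intervals of the logFC over all 7 samples reach 0.64 for Hspa5 and −0.72 for Creb3l2, so differences of that size remained possible.

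Between genes, levels were compared as CPM per kilobase of annotated exon, averaged over the 7 samples. Hsp90b1, at 84.3, and Hspa5, at 81.6 CPM per kilobase, ranked highest, and only 2.35% and 2.44% of tested genes had a higher level. Their ranges over the samples, 69.6 to 94.7 and 56.4 to 104 CPM per kilobase, overlapped. Atf4 followed at 48.5 (42.6 to 53.2) and Xbp1 at 35.2 (27.7 to 38.9) CPM per kilobase, with ranges that were separate from each other. The sensors Atf6, at 8.42, and Eif2ak3, at 8.31 CPM per kilobase, had overlapping ranges and lay below Xbp1 in all samples. Ddit3 (6.41), Creb3l2 (5.83), Ern1 (5.33), and Creb3l1 (4.97 CPM per kilobase) were the lowest, with ranges that overlapped between neighbours. Measured this way, the chaperones and the 2 transcription factors Atf4 and Xbp1 stood above the sensors and above the CREB3-like genes in every sample.

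The UPR genes differed in how much they varied over the samples. The SD of log2 CPM over the 7 samples was 0.35 for Creb3l1, 0.29 for Creb3l2, and 0.26 for Hspa5, against a median of 0.20 over all tested genes, and between 0.063 and 0.20 for the other 7. Without WT replicate 1 it was 0.31 for Creb3l1, 0.16 for Ern1, and 0.15 for both Creb3l2 and Hspa5, against a median of 0.13. In their pattern, 8 of the 10 genes could be placed on 2 sides, chosen from these correlations. Hspa5, Hsp90b1, Xbp1, Atf4, and Ddit3 had a Pearson r between 0.48 and 0.98 in their 10 pairs, and Ern1, Creb3l1, and Creb3l2 between 0.78 and 0.86 in their 3 pairs. Between the 2 sides, r lay between −0.94 and −0.55 in 15 pairs. Without WT replicate 1, these ranges were 0.39 to 0.92, 0.60 to 0.93, and −0.92 to −0.21, and Creb3l1 and Creb3l2 had an r of 0.93. The other 2 genes were not placed. Atf6 had an r between −0.62 (Ddit3) and 0.44 (Ern1) with the other 9 genes over the 7 samples. Its place depended on WT replicate 1, since without that sample r was 0.92 with Ern1, 0.63 with Creb3l1, and 0.53 with Creb3l2, and −0.84 with Ddit3 and −0.59 with Hspa5. Eif2ak3 had an r of 0.83 with Xbp1 and Atf4, but of 0.35 with Ddit3 and −0.24 with Creb3l1, and without WT replicate 1 these values were 0.92, 0.76, 0.18, and 0.12. These correlations are a description over samples of 2 genotypes that share the differences in depth and in cell type markers given above.

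**Figure D2:**
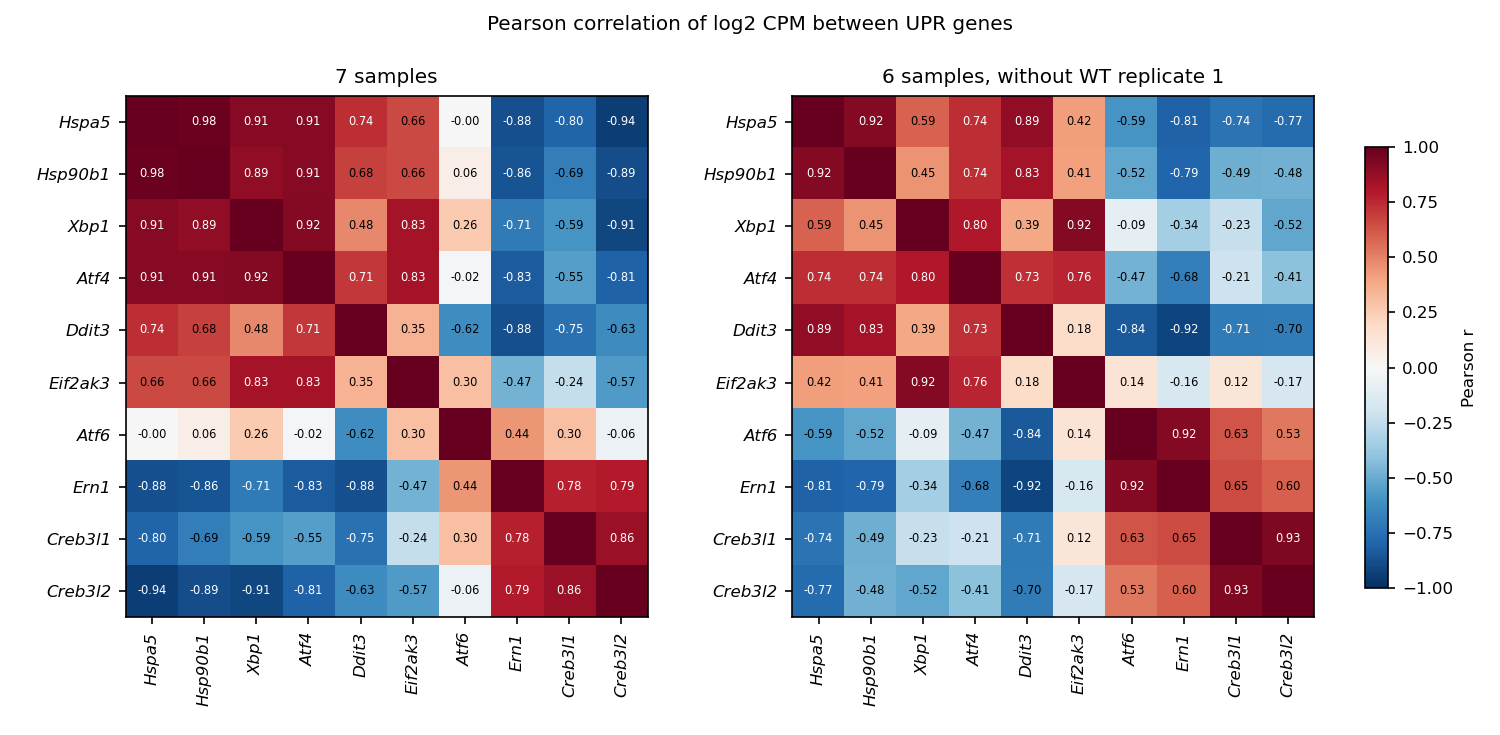
Pearson r between the log2 CPM values of each pair of UPR genes, over the 7 samples on the left and over 6 samples without WT replicate 1 on the right, from −1 in blue to 1 in red. Hspa5 and Hsp90b1 (0.98 and 0.92) and Creb3l1 and Creb3l2 (0.86 and 0.93) stay alike in both panels, while several pairs with Xbp1 fade in the second.

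The genes most like each UPR gene over the 7 samples were sought among 9761 tested genes with a mean of at least 10 CPM, by Pearson r of log2 CPM. With so many genes and 7 samples, high values of r occur readily, and they are given as a description. Nearest to Hspa5 were Gata1, a transcription factor of erythroid cells and megakaryocytes (r = 0.999, Spearman's rho 0.96), Nbn (0.997), and the basophil protease gene Mcpt8 (0.994). Nearest to Hsp90b1 were Stmn1 (0.998), Hspa9, which encodes a mitochondrial HSP70 (0.995), and Mphosph10 (0.994). Xbp1 was most like Tufm (0.998), Rbm22 (0.998), and Ifi30 (0.997), and Atf4 most like Utp6 (0.997), Ssr1 (0.995), and Cbx1 (0.984). Ssr1 encodes a subunit of the translocon-associated protein complex of the ER. Ddit3 lay nearest to Slc3a2, a known target gene of ATF4 (0.990), Pheta2 (0.989), and Ccdc34 (0.974). Of the sensors, Ern1 was nearest to Usp28 (0.991), Atp9b (0.987), and Dennd3 (0.986), Eif2ak3 to Tbxas1 (0.980), Tacc1 (0.977), and Dhx38 (0.972), and Atf6 to Mov10 (0.986) and Arsb (0.953). Arsb encodes a lysosomal enzyme that degrades glycosaminoglycans. Creb3l1 was like the netrin receptor gene Neo1 (0.994) and Kcna6 (0.987), and Creb3l2 most like the kinase gene Abl1 (0.995), Rbak (0.993), and the potassium channel gene Kcnma1 (0.992).

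Other genes of the pathway were examined in 6 lists of genes with known roles. Of the 22 ER chaperones and folding enzymes, 19 had a positive logFC, with a median of 0.089, against 7904 of the 16429 tested genes and a median of −0.0088. Without WT replicate 1, 11 of the 22 were positive, with a median of −0.0038, against a median of −0.0017 over all tested genes. This one-sidedness was thus not seen without that sample, and the list was not recounted without any other sample. Manf, a secreted folding factor, had 30.6 to 45.5 CPM in WT and 47.8 to 54.1 CPM in Trpc1-/- samples, with a logFC of 0.32 and an adjusted P of 0.492 in edgeR (SE 0.13). It was the 1 gene of the 22 at an unadjusted P under 0.05 in edgeR, against 10.0% of all tested genes. The next smallest P values in this list were those of Dnajb9 (logFC 0.22), Ero1lb (0.14), and Sdf2l1 (0.36). The logFC of these 4 genes without WT replicate 1 was 0.21, 0.15, 0.10, and 0.17. The most abundant gene per length was P4hb, which encodes protein disulfide isomerase, at 131 CPM per kilobase and a logFC of −0.053, or −0.16 without WT replicate 1. Of the 16 translocation and signal peptide cleavage genes, 12 had a positive logFC, with a median of 0.10, and 10 did without WT replicate 1, with a median of 0.016. Sec61g, which encodes a small subunit of the SEC61 channel, had 35.9 to 54.5 CPM in WT and 60.3 to 75.2 CPM in Trpc1-/- samples, with a logFC of 0.51 and an adjusted P of 0.407 in edgeR and 0.0665 in DESeq2 (SE 0.15). DESeq2 called it in 2 of the 7 fits that left out a sample, those without WT replicate 1 or 3 (adjusted P = 0.00473 and 0.0452), with an adjusted P of up to 0.692 in the others. The edgeR logFC was 0.40 without WT replicate 1. The logFC was 0.16 for each of Spcs3, Spcs2, and Sec62, which became 0.12, 0.062, and 0.081 without that sample, and −0.061 for Ssr3, the most abundant of this list per length.

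The ATF4 and CHOP targets were spread to both sides, with 11 positive and 10 negative of the 21 tested and a median of 0.031. In the fit without WT replicate 1, 8 were positive, with a median of −0.032. The most abundant of them per length was Ppp1r15a, which encodes GADD34, the phosphatase subunit that reverses the phosphorylation of eIF2. It had 96.5, 97.9, 103, and 92.7 CPM in WT and 152, 117, and 137 CPM in Trpc1-/- samples. All Trpc1-/- samples lay above all WT samples, and the logFC was 0.47 (SE 0.10). The adjusted P was 0.395 in edgeR and 0.00528 in DESeq2. DESeq2 called it in 4 of the 7 fits that left out a sample, with the highest adjusted P, 0.188, without Trpc1-/- replicate 3. Stc2, a secreted glycoprotein, had 6.78 to 10.3 CPM in WT and 4.73 to 5.98 CPM in Trpc1-/- samples, and its logFC was −0.64 (SE 0.17). The adjusted P was 0.395 in edgeR and 0.0423 in DESeq2. DESeq2 called it in 1 of the 7 fits that left out a sample, with an adjusted P up to 0.474. Ddit4, an inhibitor of mTORC1 also known for its induction by hypoxia, had a logFC of −0.74 (SE 0.22) and the lipoprotein receptor gene Vldlr one of −0.49 (SE 0.15), with adjusted P values of 0.408 and 0.409 in edgeR and of 0.0753 and 0.11 in DESeq2. Each was called in 1 of the 7 DESeq2 fits that left out a sample, Ddit4 without WT replicate 1 (adjusted P = 0.00759) and Vldlr without Trpc1-/- replicate 2 (adjusted P = 0.00761), with adjusted P values of up to 0.691 and 0.784 in the others. Leaving out WT replicate 1, the logFC was −0.52 for both Stc2 and Ddit4 and −0.39 for Vldlr. Trib3, at 0.49 to 1.02 CPM, was below the filter.

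**Figure D3:**
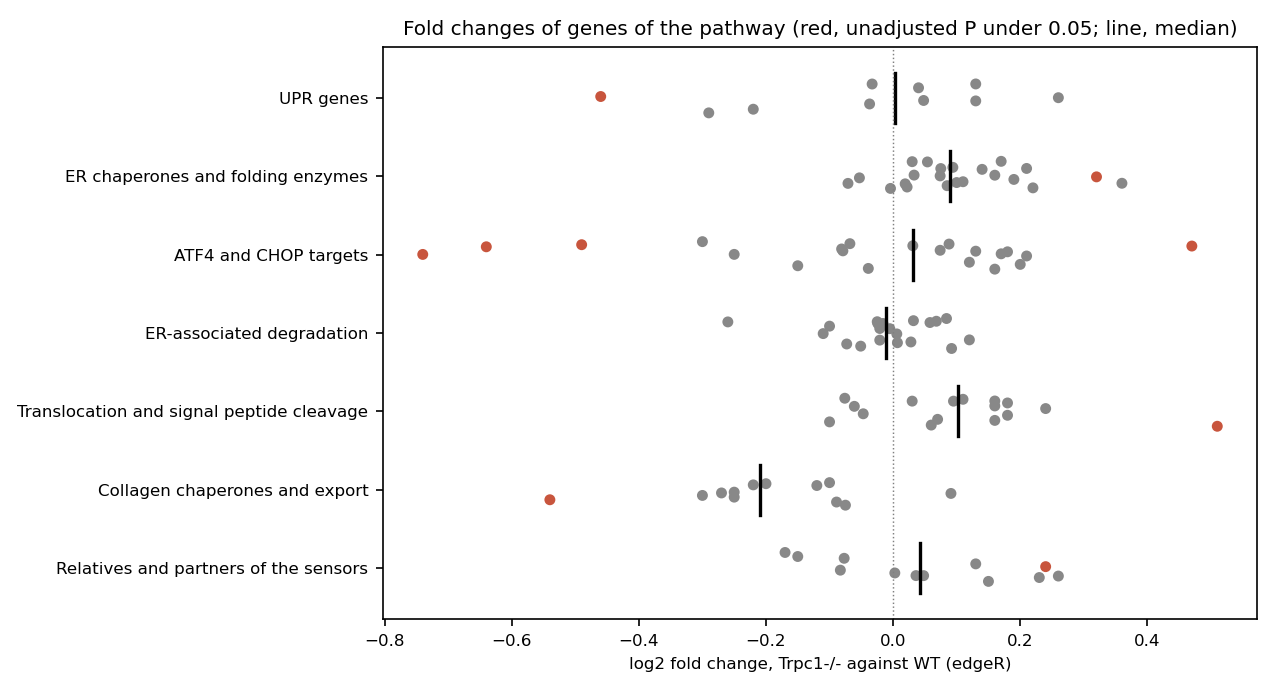
The logFC of each tested gene (Trpc1-/- against WT, edgeR) of the UPR genes and of 6 other lists, with genes at an unadjusted P under 0.05 in red and the median of each list as a line. The medians lie between −0.21 for collagen chaperones and export and 0.10 for translocation. Of the 103 tested genes of the 6 lists, 8 are red, or 7.77%, against 10.0% of all tested genes.

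Of the 12 collagen chaperone and export genes, 11 had a negative logFC, with a median of −0.21, and 11 did without WT replicate 1, with a median of −0.24. Serpinh1, which encodes the collagen chaperone HSP47 and was the most abundant of them per length, had 285, 371, 388, and 315 CPM in WT and 252, 340, and 234 CPM in Trpc1-/- samples, with a logFC of −0.30 and an adjusted P of 0.551 in edgeR (SE 0.17). As for Creb3l1, Trpc1-/- replicates 1 and 3 lay below all WT samples and Trpc1-/- replicate 2 lay among them. P4ha2, a subunit of collagen prolyl 4-hydroxylase, had 26.2, 25.1, 26.5, and 21.3 CPM in WT and 17.5, 18.8, and 15 CPM in Trpc1-/- samples. Its groups did not overlap, and the logFC was −0.54 (SE 0.11). The adjusted P was 0.381 in edgeR and 0.00712 in DESeq2. DESeq2 called it in 3 of the 7 fits that left out a sample, and not without Trpc1-/- replicate 3, where the adjusted P was 0.218. The logFC of P3h1, Sec24d, and Fkbp14 was −0.27, −0.22, and −0.25. The 20 ER-associated degradation genes had a median logFC of −0.011, with 9 positive. Of all tested genes, 10.0% had an unadjusted P under 0.05 in edgeR and DESeq2 called 1.79%, against 0 and 0 of these 20 genes. Among them, Faf2 had a logFC of −0.11, Syvn1 of −0.26, Ube2g2 of −0.073, and Vcp, the most abundant per length, of 0.12. These became −0.10, −0.0078, −0.12, and 0.037 without WT replicate 1, so that the negative value of Syvn1 was almost absent without that sample. The list then had 6 positive and a median of −0.027. Of the 12 tested relatives and partners of the sensors, 8 had a positive logFC, with a median of 0.042, and 7 did without WT replicate 1, with a median of 0.024. Eif2ak1, the heme-regulated eIF2 kinase, had 107 to 123 CPM in WT and 127 to 145 CPM in Trpc1-/- samples, with a logFC of 0.24 and an adjusted P of 0.454 in edgeR (SE 0.084). The other named genes of this list had a logFC of 0.26 for Eif2s1, 0.23 for Eif2ak2, −0.17 for Eif2ak4, and 0.048 for Ppp1r15b, the most abundant per length, and without WT replicate 1 these were 0.15, 0.18, −0.10, and 0.078. Ern2, the IRE1 paralog known from mucous epithelia, had 0 counts in all 7 samples, which allows up to 0.0632 CPM in the shallowest, and Creb3l4, at 0.237 to 0.474 CPM, was below the filter.

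The tissue markers moved with several of these genes. All 12 chondrocyte markers had a negative logFC, with a median of −0.48, and summed to 6036, 6103, 6161, and 5844 CPM in WT and to 3260, 6196, and 3522 CPM in Trpc1-/- samples. Col2a1, the gene of type II collagen, was the most abundant of them with 49.4% of the sum, and none was at 0, as the label of cartilage requires. The 10 osteoblast and osteocyte markers, led by Col1a1, all had a negative logFC. DESeq2 called 1 of them and edgeR 0, against 1.79% and 0% of all tested genes. Without WT replicate 1, edgeR called 2 of them, against 0.298%. These markers summed to 13880, 10219, 9035, and 7796 CPM in WT and to 6111, 10490, and 6268 CPM in Trpc1-/- samples. Col1a1 made up 83.8% of this sum and was highest in WT replicate 1. The mean log2 CPM of the list was instead lower in that sample than in the other WT samples, at −0.12 from the mean over the 7 samples, against 0.29, 0.34, and 0.10. Trpc1-/- replicates 1 and 3 were the lowest samples in both sums, as they were for Creb3l1 and Creb3l2. Without WT replicate 1, the log2 CPM of Creb3l1 had an r of 0.96 with the mean of the chondrocyte markers and of 0.93 with that of the osteoblast and osteocyte markers (n = 6), and of 0.72 and 0.65 with it (n = 7). For Creb3l2 these values were 0.88 and 0.83 without WT replicate 1 and 0.31 and 0.22 with it. The 6 fibroblast markers, led by Col3a1, had a negative logFC with a median of −0.34 and summed to between 3755 and 7019 CPM in WT and between 3901 and 4963 CPM in Trpc1-/- samples.

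Markers of marrow cells were present in all samples. The 9 erythroid markers, led by the β-globin gene Hbb-bs, had a positive logFC with a median of 0.62. DESeq2 called 4 of them and edgeR 0, against 1.79% and 0% of all tested genes. The markers summed to 18832, 32213, 35969, and 29120 CPM in WT and to 46113, 41551, and 56939 CPM in Trpc1-/- samples. With their mean log2 CPM, Hspa5 had an r of 0.87 over 7 samples and of 0.69 without WT replicate 1, and Creb3l1 an r of −0.92 and −0.89. The 10 neutrophil lineage markers, led by S100a9, had a median logFC of 0.12 with 10 positive, but of −0.10 with 3 positive without WT replicate 1, and summed to between 5503 and 17360 CPM in WT and between 12823 and 16849 CPM in Trpc1-/- samples. Xbp1 had an r of 0.95 with them over 7 samples and of 0.69 without WT replicate 1. The plasma cell markers, led by the immunoglobulin gene Ighm, had a median logFC of 0.22 over the 9 tested, or 0.019 without WT replicate 1, and Tnfrsf17 did not pass the filter. Their sum lay between 441 and 1269 CPM in WT and between 1138 and 1330 CPM in Trpc1-/- samples, and their r with Hspa5 was 0.83 over 7 samples and −0.054 without WT replicate 1. The part of these markers in the levels of the UPR genes was not tested.

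**Figure D4:**
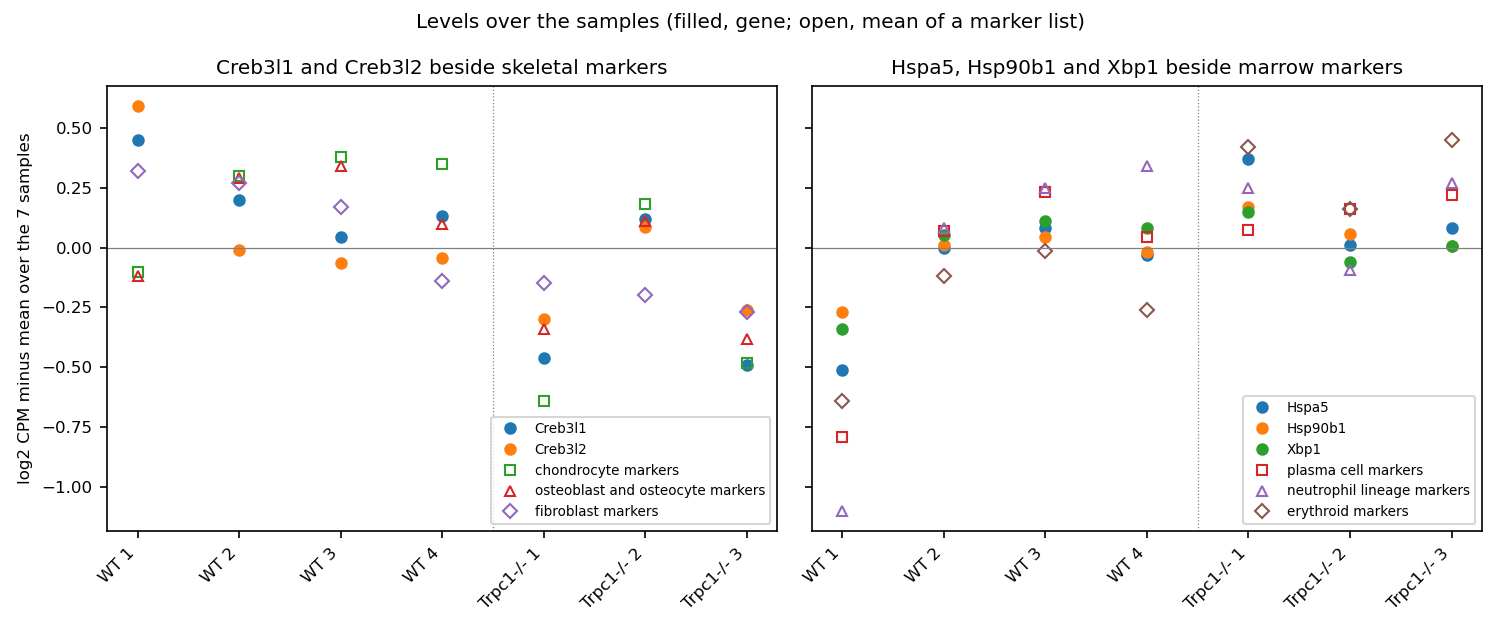
The log2 CPM of UPR genes (filled points) and the mean log2 CPM of marker lists (open points) in each sample, each less its mean over the 7 samples, for Creb3l1 and Creb3l2 with skeletal markers on the left and for Hspa5, Hsp90b1, and Xbp1 with marrow markers on the right. Creb3l1, Creb3l2, and the chondrocyte markers are low in Trpc1-/- replicates 1 and 3, and the marrow markers, Hspa5, and Xbp1 are lowest in WT replicate 1.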

How the data were processed

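RNA of pooled mouse knee cartilage was depleted of ribosomal RNA and sequenced as stranded paired-end libraries, of which 7 were analysed, 4 WT and 3 Trpc1-/-. Per the submitters' processing notes, bcl2fastq, Cutadapt 2.5, HISAT2 2.1.0, and StringTie 2.0.3 were used with GRCm38. The authors deposited estimated counts per gene, derived from StringTie coverage; they were already whole and were used as deposited. Assignment of reads shared by paralogs, pseudogenes, or overlapping genes was fixed by that pipeline. Total counts per sample lay between 52142451 and 118254070.

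Genes above 1 CPM in 2 or more samples were tested in R 4.3.3 with edgeR 4.0.16 (TMM, quasi-likelihood test, genotype alone, Benjamini-Hochberg adjustment over 16429 genes, threshold 0.05). DESeq2 1.42.0 with default settings, limma 3.58.1 (voom), other normalizations and filters, the replicate block, the series read as mouse numbers from the labels, and each sample left out were alternatives. The fits of edgeR, DESeq2, and limma-voom over all samples with genotype alone were first tested on simulated data. The other settings were not. Standard errors of logFC were taken from the F statistic. Log2 CPM used a prior count of 1. Positions and exon lengths came from GENCODE M21, promoters from RefSeq.

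The genes, gene lists, and tests were chosen with earlier results of these data known. The genes named were the 10 UPR genes, Trpc1, genes overlapping a UPR gene, the 3 most correlated genes of each, and, of each list, genes called by edgeR or DESeq2, the 4 with the smallest P in edgeR, and the most abundant per length; of each marker list, the most abundant gene and those below the filter. The erythroid list held 10 genes, of which Ahsp was not analysed here. Calr, Canx, Creld2, Dnajc3, Pdia6, and Derl3 were named after the promoter search.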

Additional observations from a re-analysis of the deposited data

Results flagged for a closer look

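In 9 of the 38 genes examined, the 10 UPR genes and 28 others of the pathway lists, a WT sample lay far from the other 3, with a gap to its nearest neighbour that took more of the range of the group than Dixon's critical value allows. Chance gives such a gap in about 1 of 20 groups of 4. Over all 16429 tested genes, 1916 had one, or 11.7%, and in 1670 of these the sample was WT replicate 1, so the gaps were not limited to the genes examined. Of the 10 UPR genes 2 had one. The 28 others include genes chosen for small P values, so the 9 of 38, or 23.7%, are no measure of the pathway. The sample was WT replicate 1 in all 9 genes. It was the lowest for Xbp1 (89.9 CPM against 118 to 123 CPM, 0.863), Sdf2l1 (10.5 CPM against 20.2 to 21.6 CPM, 0.878), Ube2g2 (24.1 CPM against 27.1 to 27.5 CPM, 0.895), Spcs3 (88 CPM against 97.9 to 99.7 CPM, 0.842), and Spcs2 (46.7 CPM against 61.6 to 64.7 CPM, 0.83), where each value after the CPM is the share of the range taken by the gap. It was the highest for Creb3l2 (62.7 CPM against 39.8 to 41.3 CPM, 0.937), Ddit4 (31.6 CPM against 17.8 to 20 CPM, 0.843), Vldlr (49.4 CPM against 37.6 to 39.2 CPM, 0.864), and Syvn1 (48.2 CPM against 25.2 to 28.7 CPM, 0.847). The same sample had the lowest total count and the lowest sums of neutrophil lineage, plasma cell, and erythroid markers, and the part of these in the 9 genes was not tested.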

How the results depend on the processing

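No UPR gene was called by edgeR under any setting tried, nor by limma-voom, which was run over all 7 samples only. DESeq2 called Creb3l1 in 1 added fit. The count of genes called over all tested genes, 0 in edgeR, was 294 in DESeq2 and 1 in limma-voom; with each sample left out of edgeR it lay between 0 and 49, the 49 without WT replicate 1. The fits of DESeq2 with a sample left out or with the block were added after seeing the data. In these, DESeq2 called 890, 62, 134, and 283 genes without WT replicates 1 to 4 and 79, 367, and 37 without Trpc1-/- replicates 1 to 3, and 1 UPR gene, Creb3l1, without Trpc1-/- replicate 2. The number of UPR genes at an unadjusted P under 0.05, 1 over all samples, was 2 with library size alone (Creb3l1 and Ern1), against 9.48% of all tested genes, 2 with the mouse number series as a covariate (Creb3l1 and Creb3l2), against 17.6%, and 2 without WT replicate 3 (Creb3l1 and Ern1), against 10.3%. It was 0 without WT replicate 1 or 2 or Trpc1-/- replicate 1 or 3, against 16.9%, 6.26%, 5.19%, and 4.35%. In DESeq2 it was 2 without WT replicate 3, against 13.3%, and 0 without Trpc1-/- replicate 1 or 3, against 6.90% and 5.84%. Of the 103 tested genes of the 6 other lists, 8 had an unadjusted P under 0.05, or 7.77%, against 10.0% of all tested genes. With the mouse number series as a covariate it was 13, or 12.6%, against 17.6%. With each sample left out it was between 6 and 17, with 17 without WT replicate 1, or 16.5%, against 16.9%, and 13 without WT replicate 4, or 12.6%, against 10.1%. DESeq2 gave 17 without WT replicate 1, or 16.5%, against 17.2%, and 14 without WT replicate 4 and without Trpc1-/- replicate 2, or 13.6% each, against 12.4% each. The UPR genes with separate groups, 0 over all samples, numbered 1 with library size alone (Creb3l1), against 11.2% of all tested genes, and 3 in the 5 samples of the lower mouse number series (Hspa5, Ern1, and Creb3l1), against 34.9%. With each sample left out they numbered between 0 and 4, with 4 without Trpc1-/- replicate 2, against 28.8%, and 3 without WT replicate 3, against 21.3%. The cause was not tested in any of these.

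The logFC kept its sign in all 24 settings for Hspa5 (0.15 to 0.40), Hsp90b1 (0.064 to 0.20), Ddit3 (0.061 to 0.19), Ern1 (−0.30 to −0.15), Creb3l1 (−0.70 to −0.35), and Creb3l2 (−0.47 to −0.11), and for Trpc1 and the 8 list genes at an unadjusted P under 0.05. It changed sign for the other 4, which had a logFC between −0.037 and 0.048 over all samples. Xbp1 reached 0.16, both in the lower mouse number series and with that series as a covariate. With library size alone it was −0.016 for Xbp1 and −0.019 for Atf4, and for Eif2ak3 it was 0.026 both in the lower mouse number series and with that series as a covariate. With each sample left out it ran from −0.049 to 0.091 for Xbp1, from −0.018 to 0.071 for Atf4, from −0.065 to 0.0018 for Atf6, and from −0.10 to 0.0046 for Eif2ak3. In DESeq2 it was −0.044 for Xbp1 and −0.0093 for Atf4 without WT replicate 1, −0.013 and −0.018 without Trpc1-/- replicate 1, 0.0042 for Atf6 without WT replicate 4, and 0.0097 for Eif2ak3 without Trpc1-/- replicate 3. The cause was not tested.

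Same-numbered samples did not deviate together from their group means, with correlations of −0.348, −0.205, and −0.0439. Pairs with unlike numbers ran from −0.332 to 0.364. The values thus gave no sign that the replicate numbers pair the samples, but so few pairs cannot exclude it. The replicate block on replicates 1 to 3 gave 0 called genes in edgeR and 53 in DESeq2, and a logFC of Atf6 of 0.0017 and 0.0045. With the block no UPR gene was called. Of the list genes, DESeq2 with the block called Ddit4 (adjusted P = 0.0176). It no longer called Ppp1r15a, Stc2, or P4ha2 (adjusted P = 0.351, 0.334, and 0.115 in DESeq2). The lowest count of a tested UPR gene in any sample was 485. What set the width of the intervals was not tested.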
